A study of Mus musculus with 6 samples.

Results

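The 9 genes described here encode the enzymes of the pentose phosphate pathway and a cytosolic enzyme that makes the same reduced cofactor, NADPH, from isocitrate. They were chosen by gene symbol: G6pdx, Pgls and Pgd of the oxidative branch, Rpia, Rpe, Tkt and Taldo1 of the non-oxidative branch, H6pd of the endoplasmic reticulum, and Idh1. All 9 were found among 10955 named genes, represented by 10 of 14659 transcripts, and each was read from its transcript with the highest mean level. Livers of male C57BL/6J mice aged 8 weeks, an inbred strain with no engineered allele named in the labels, were profiled as 6 messenger RNA libraries. The refed group (libraries 5, 7 and 8) had no food for 12 h from 10 am, after which a high-sucrose diet with 69% sucrose and 10% fat was given for 12 h from 10 pm. The fasted group (libraries 1, 3 and 4) had no food for 12 h from 10 pm. Both groups were killed at 10 am. Levels are RPKM, reads scaled by the authors to transcript length and library size. The labels do not say outright that each library came from its own mouse, and the spread behind each p-value may therefore be technical.

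The oxidative branch turns glucose 6-phosphate into ribulose 5-phosphate and reduces NADP+ to NADPH at its dehydrogenase steps. The non-oxidative branch interconverts pentose phosphates with the sugar phosphates of glycolysis, so that ribose can be made for nucleotides or carbon returned to glycolysis. In liver NADPH from this pathway, from cytosolic isocitrate dehydrogenase and from malic enzyme is spent on making fatty acids and cholesterol and on keeping glutathione and thioredoxin reduced.

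Refed liver had more RNA of most of these genes, by very unequal amounts. Pgd, the dehydrogenase that makes the second NADPH of the oxidative branch, was 14.2-fold higher, Rpia was 9.43-fold higher and Tkt 2.97-fold higher, while Idh1, Taldo1 and Rpe rose 1.63-fold, 1.44-fold and 1.35-fold. The 3 others, G6pdx, Pgls and H6pd, did not pass the test. In all, 6 of 9 members were called higher and none lower at a limma adjusted p of 0.05. Of 10898 genes tested, 42.2% were called, 26.4% as higher and 15.8% as lower. The calls over all genes were 62.6% on the higher side, and 49.1% with each library centred on its median, where 20.1% of genes were called higher and the same 6 members stayed past the threshold. All refed libraries lay above all fasted ones for 8 of 9 members, H6pd being the exception, against 34.7% of all genes tested, and no member had all refed libraries below all fasted ones, against 20.7%. The median log2 fold change was 0.70 over the 9 members and 0.10 over all genes tested. Plain fold changes here are ratios of group means of RPKM. Log2 fold changes come from log2(RPKM + 1) values, where the added 1 makes the change of low genes look smaller.

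**Figure D1:**
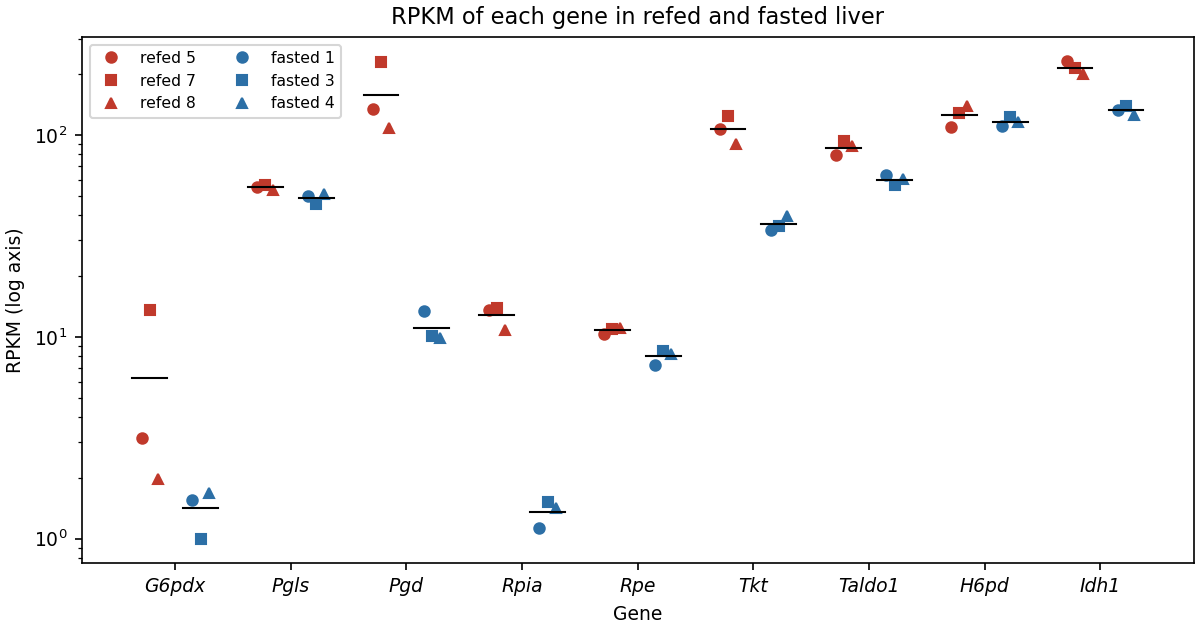
RPKM on a log axis for each gene in the 3 refed libraries (left, red) and the 3 fasted libraries (right, blue), with black bars at group means. The refed points of Pgd, Rpia and Tkt stand far above the fasted ones, those of H6pd overlap, and refed 7 holds the high value of G6pdx at 13.6 RPKM.

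The promoter windows of the 3 genes with the highest fold changes among those called, and of the gene of the entry step, are shown so that short DNA elements of factors known to act on metabolic or antioxidant genes can be looked for in them. Each window runs from 250 bases before to 50 bases after a transcript start, 5′ to 3′ on the gene's strand, from RefSeq on build GRCm38.p6. Pgd has 2 annotated starts, shown as upstream (chr4:149166656-149166955, minus strand) and downstream (chr4:149166033-149166332, minus strand). The others are chr6:70792126-70792425 (minus strand) for Rpia, chr14:30548881-30549180 (plus strand) for Tkt and chrX:74428831-74429130 (minus strand) for G6pdx. Capitals mark a match to one of 4 short motifs searched on both strands: CCAAT, the box bound by NF-Y; CACGTG, an E-box form; TCACNCCAC, a form of the sterol regulatory element; and TGACNNNGC, the core of the antioxidant response element bound by NRF2.
Pgd upstream: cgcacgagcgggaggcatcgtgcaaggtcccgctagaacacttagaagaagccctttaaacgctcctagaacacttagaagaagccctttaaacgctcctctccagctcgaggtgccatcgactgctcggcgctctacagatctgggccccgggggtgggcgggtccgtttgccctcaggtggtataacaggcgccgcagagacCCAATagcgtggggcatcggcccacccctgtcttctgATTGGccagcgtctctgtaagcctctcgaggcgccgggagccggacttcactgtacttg
Pgd downstream: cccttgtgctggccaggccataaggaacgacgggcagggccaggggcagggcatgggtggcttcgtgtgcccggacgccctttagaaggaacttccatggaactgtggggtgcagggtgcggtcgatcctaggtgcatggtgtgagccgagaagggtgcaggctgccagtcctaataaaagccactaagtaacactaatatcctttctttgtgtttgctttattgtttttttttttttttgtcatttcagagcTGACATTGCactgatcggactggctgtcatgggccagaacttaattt
Rpia: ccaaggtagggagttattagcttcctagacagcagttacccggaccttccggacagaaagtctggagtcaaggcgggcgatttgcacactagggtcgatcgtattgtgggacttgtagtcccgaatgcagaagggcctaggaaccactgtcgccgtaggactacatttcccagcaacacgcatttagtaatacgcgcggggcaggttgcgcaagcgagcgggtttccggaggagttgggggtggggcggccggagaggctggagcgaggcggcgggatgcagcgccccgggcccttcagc
Tkt: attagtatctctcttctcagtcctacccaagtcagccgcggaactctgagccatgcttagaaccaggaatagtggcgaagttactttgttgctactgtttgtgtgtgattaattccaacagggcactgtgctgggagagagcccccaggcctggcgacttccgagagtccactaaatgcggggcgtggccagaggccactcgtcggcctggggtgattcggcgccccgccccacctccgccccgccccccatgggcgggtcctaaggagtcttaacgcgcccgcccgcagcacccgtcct
G6pdx: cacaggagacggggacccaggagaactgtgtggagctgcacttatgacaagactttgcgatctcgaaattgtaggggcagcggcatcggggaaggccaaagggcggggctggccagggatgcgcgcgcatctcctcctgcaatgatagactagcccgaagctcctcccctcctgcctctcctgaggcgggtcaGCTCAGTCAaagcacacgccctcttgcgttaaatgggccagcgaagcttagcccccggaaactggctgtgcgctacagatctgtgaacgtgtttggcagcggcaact
The upstream Pgd window held CCAAT at 46 bases before the start and its reverse complement at 9 bases before. The downstream one held TGACNNNGC just after its start. The bases ahead of that start end in a t-rich run and cag, as introns do before an exon. Those after it can be read as coding sequence, so this match may not lie in a promoter. The G6pdx window held TGACNNNGC on the opposite strand, 57 bases before the start. None of the 4 motifs was in the Rpia or Tkt window. Among the 11 windows of the 9 genes, CCAAT was in 5 and TGACNNNGC in 2, the downstream Pgd window included, while CACGTG and TCACNCCAC were in none. Of all 32817 promoter windows in the reference, 37.4% held CCAAT, 12.4% TGACNNNGC, 7.15% CACGTG and 1.24% TCACNCCAC. A match of letters is a description of the window and not a measured binding site, and a window without one says only that these letters are not in it.

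G6pdx, the X-linked gene of glucose-6-phosphate dehydrogenase, which commits glucose 6-phosphate to the pathway, was among the lowest of the 9. Its level was 3.17, 13.6 and 1.97 RPKM in refed 5, 7 and 8, against 1.55, 0.997 and 1.69 RPKM in fasted 1, 3 and 4. Refed 7 stood far above the other two refed libraries, and refed 8 lay only just above the highest fasted one. The log2 fold change was 1.24 ± 0.51 (SE, n = 3 each; 95% interval 0.06 to 2.42), which did not pass (limma adjusted p = 0.084). Without refed 7 it was 0.56 (limma adjusted p = 0.063), and without refed 8 it was 1.71 and passed (limma adjusted p = 0.028). The mean was 6.26 ± 6.42 RPKM in refed and 1.41 ± 0.365 RPKM in fasted liver (SD, n = 3 each). In the GENCODE annotation, with all transcripts of a gene joined, exons of G6pdx share 418 bases with exons of Ikbkg on the opposite strand. No source used here says whether counting took account of strand. Ikbkg was at 17.7, 14.5 and 17.2 RPKM in refed 5, 7 and 8. These whole-transcript values do not show where reads in the shared bases were counted. Whether the overlap affects the G6pdx level was not tested.

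Pgls, 6-phosphogluconolactonase, which hydrolyses the lactone between the dehydrogenase steps, was nearly level. It was at 55.4, 56.5 and 53.2 RPKM in refed 5, 7 and 8, against 49.6, 45.2 and 51.0 RPKM in fasted 1, 3 and 4. The groups did not overlap but lay close together. The difference on the log2 scale was 0.18 ± 0.08 (SE, n = 3 each; 95% interval -0.01 to 0.36; limma adjusted p = 0.11). In GENCODE, with all transcripts of a gene joined, its exons share 776 bases with exons of Fam129c on the same strand. Fam129c was not tested here, and whether the RefSeq transcript measured for Pgls holds the shared bases was not checked.

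Pgd, 6-phosphogluconate dehydrogenase, which oxidises and decarboxylates 6-phosphogluconate, changed the most. It was at 134, 230 and 109 RPKM in refed 5, 7 and 8, against 13.4, 10.1 and 9.86 RPKM in fasted 1, 3 and 4. Every refed library was far above every fasted one, and refed 7 was again the highest. Its log2 fold change of 3.65 ± 0.26 (SE, n = 3 each; limma adjusted p = 4.7e-05) was at the 99.9th percentile of all genes tested. The authors' deposited table lists 18196, 34964 and 13658 reads of Pgd in refed 5, 7 and 8, against 1684, 1319 and 1210 in fasted 1, 3 and 4. It gives a log2 fold change of 3.74 and places the gene, exons and introns together, at chromosome 4, 148524100 to 148540880 (minus strand) in mm9, the build named in the submitters' processing notes.

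H6pd, hexose-6-phosphate dehydrogenase, joins the first steps of the branch in one protein inside the endoplasmic reticulum, where its NADPH serves the cortisone-reducing enzyme encoded by Hsd11b1. Its RNA was at 109, 128 and 139 RPKM in refed 5, 7 and 8, against 111, 122 and 115 RPKM in fasted 1, 3 and 4. The groups overlapped, with refed 5 below every fasted library. The log2 fold change was 0.10 ± 0.11 (SE, n = 3 each; 95% interval -0.14 to 0.35; limma adjusted p = 0.47), against the median of 0.10 over all genes. H6pd was nevertheless one of the more abundant RNAs, at the 95.1st percentile of mean level, where G6pdx was at the 34th. Per kilobase, H6pd exceeded G6pdx by 9.39 to 70.6 times in refed and by 68.4 to 123 times in fasted libraries, and these ranges overlapped.

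Rpia, ribose 5-phosphate isomerase, which turns ribulose 5-phosphate into the ribose form used for nucleotides, was low in fasted liver. It was at 13.6, 13.9 and 10.8 RPKM in refed 5, 7 and 8, against 1.12, 1.52 and 1.42 RPKM in fasted 1, 3 and 4. The groups were far apart and each was narrow. Its log2 fold change was 2.55 ± 0.12 (SE, n = 3 each; limma adjusted p = 9.3e-06). The authors' deposited table lists 1964, 2326 and 1355 reads of Rpia in refed 5, 7 and 8, against 149, 207 and 197 in fasted 1, 3 and 4, with a log2 fold change of 3.13. With a pseudocount of 0.1 in place of 1, the fit gave 3.15 for Rpia. In mm9 the authors' deposited table places it at chromosome 6, 70715714 to 70742226 (minus strand).

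Rpe, ribulose-5-phosphate-3-epimerase, draws on the same substrate as Rpia and makes xylulose 5-phosphate. It was at 10.3, 11.0 and 11.1 RPKM in refed 5, 7 and 8, against 7.28, 8.53 and 8.17 RPKM in fasted 1, 3 and 4. The groups did not overlap, and the difference was small. Rpe rose by 0.39 ± 0.09 on the log2 scale (SE, n = 3 each; limma adjusted p = 0.0085). Rpe is not among the 5 members that the authors' deposited table of called genes lists. In GENCODE, with all transcripts of a gene joined, its exons share 558 bases with exons of Kansl1l on the opposite strand. Whether the RefSeq transcript measured for Rpe holds these bases was not checked. Kansl1l, named for this overlap, fell by 0.44 on the log2 scale (limma adjusted p = 0.0062). It was at 1.27 RPKM on average in refed and 2.07 in fasted liver.

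Tkt, transketolase, which moves ketol units between sugar phosphates, was at 107, 125 and 90.5 RPKM in refed 5, 7 and 8, against 33.7, 35.4 and 39.5 RPKM in fasted 1, 3 and 4. The lowest refed library was above the highest fasted one by more than the range of the fasted group. The log2 fold change was 1.53 ± 0.13 (SE, n = 3 each; limma adjusted p = 9.3e-05). The authors' deposited table lists a log2 fold change of 1.45 for Tkt, on 15715 to 26259 reads in refed and 6101 to 6796 in fasted libraries, and places it at chromosome 14, 31361545 to 31387908 (plus strand) in mm9.

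Taldo1, transaldolase, which moves dihydroxyacetone units and works in series with transketolase, rose less. It was at 79.0, 92.8 and 87.6 RPKM in refed 5, 7 and 8, against 63.4, 56.3 and 60.3 RPKM in fasted 1, 3 and 4. The groups were apart. On the log2 scale it rose by 0.52 ± 0.09 (SE, n = 3 each; limma adjusted p = 0.0032), and the authors' deposited table lists 0.42, with the gene at chromosome 7, 148578098 to 148588867 (plus strand) in mm9.

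Idh1, the cytosolic NADP-dependent isocitrate dehydrogenase, makes NADPH outside the pathway and was the most abundant of the 9 in both groups by mean. It was at 233, 213 and 200 RPKM in refed 5, 7 and 8, against 132, 140 and 125 RPKM in fasted 1, 3 and 4. The groups were apart. Idh1 rose by 0.70 ± 0.09 on the log2 scale (SE, n = 3 each; limma adjusted p = 0.00087), and the authors' deposited table lists 0.56, with the gene at chromosome 1, 65205190 to 65233053 (minus strand) in mm9. The other listed Idh1 transcript was at 214, 198 and 184 RPKM in refed 5, 7 and 8. In fasted 1, 3 and 4 it was at 123, 129 and 117 RPKM. Transcripts of the same gene can share reads, so these values are not an independent measurement.

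**Figure D2:**
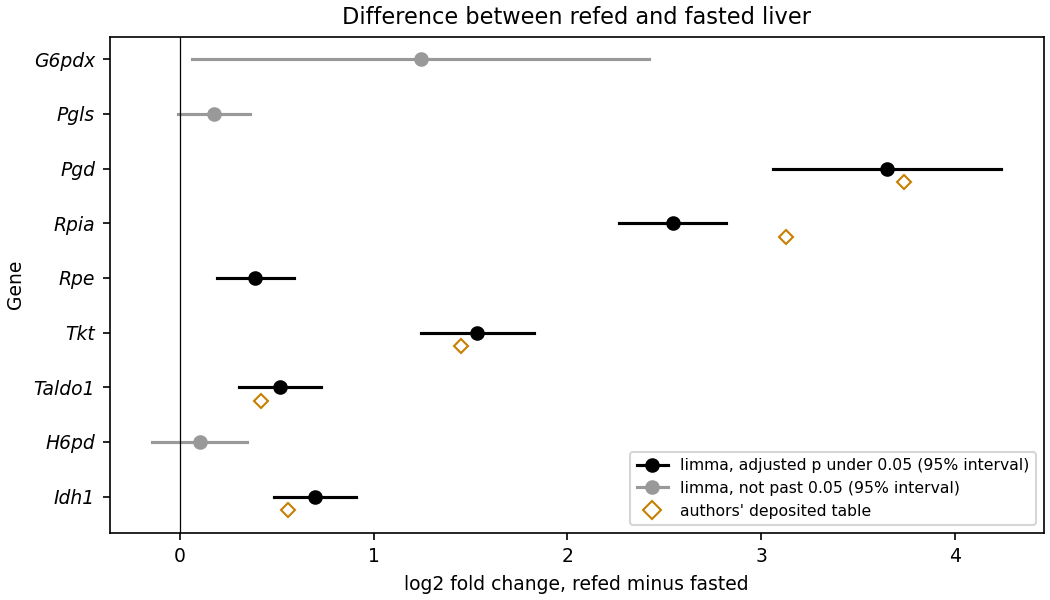
Log2 fold change of refed minus fasted for each gene, with 95% intervals from limma (black where the adjusted p was under 0.05, grey elsewhere) and, as open diamonds, the values that the authors' deposited table lists for 5 of the genes. Pgd, Rpia and Tkt lie above 1.4, and the widest interval is that of G6pdx, from 0.06 to 2.42.

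The order of the RNA levels differed between the groups. In refed liver the order of mean RPKM was Idh1, Pgd, H6pd, Tkt, Taldo1, Pgls, Rpia, Rpe and G6pdx. In that order each gene's range over the libraries overlapped the next one's, except between Taldo1 and Pgls and between Pgls and Rpia. In fasted liver the order was Idh1, H6pd, Taldo1, Pgls, Tkt, Pgd, Rpe, G6pdx and Rpia, and only G6pdx and Rpia overlapped. Pgd thus stood second among the 9 in refed liver and sixth in fasted liver.

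The RNAs of the 7 cytosolic pentose phosphate genes summed to 402, 543 and 364 RPKM in refed 5, 7 and 8, against 170, 158 and 172 RPKM in fasted 1, 3 and 4. Pgd made up 29.9% to 42.4% of that sum in refed libraries, against 5.74% to 7.86% in fasted ones. The share of Taldo1 was 17.1% to 24.1% in refed and 35.0% to 37.3% in fasted libraries, and that of Pgls 10.4% to 14.6% in refed and 28.6% to 29.7% in fasted libraries. Tkt held 23.0% to 26.6% in refed and 19.8% to 23.0% in fasted libraries, so that its share overlapped between the groups.

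The RNA levels of neighbouring steps stood in different ratios in refed and fasted liver. The ratio of Pgls to Pgd was 0.245 to 0.490 in refed and 3.71 to 5.17 in fasted libraries. The ratio of Rpia to Rpe, the genes of the isomerase and epimerase that share ribulose 5-phosphate, was 0.978 to 1.32 in refed and 0.154 to 0.178 in fasted libraries. The ratio of Tkt to Taldo1 was 1.03 to 1.35 in refed and 0.531 to 0.656 in fasted libraries. For Pgd over G6pdx it was 16.9 to 55.2 in refed and 5.85 to 10.1 in fasted libraries, with refed 7 the lowest refed value. These 4 are ratios of RPKM within a library, and in none of them did the group ranges overlap. They are RNA levels, and neither enzyme activity nor flux was measured.

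**Figure D3:**
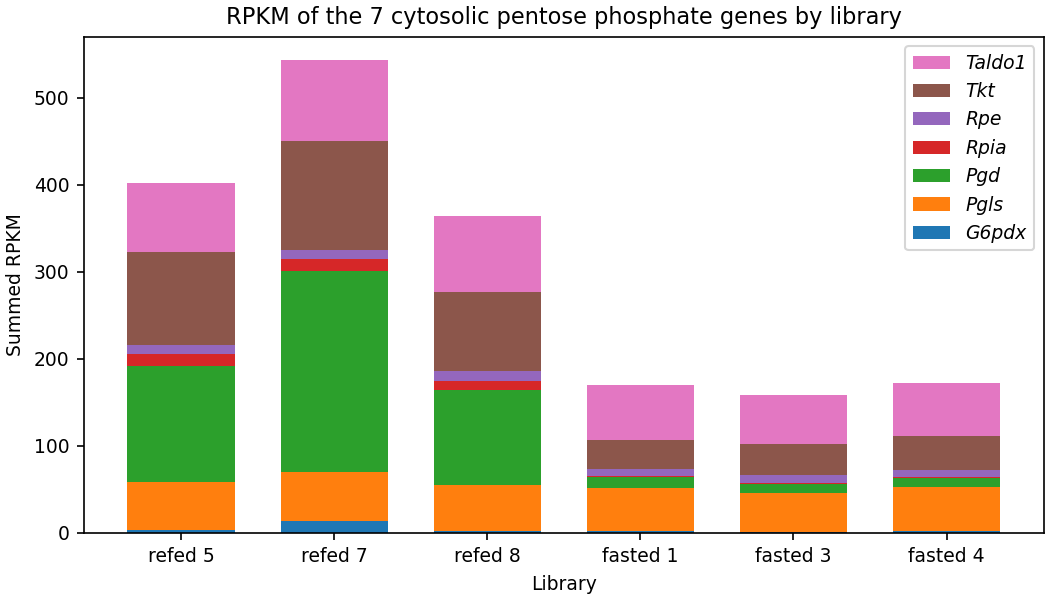
Summed RPKM of the 7 cytosolic pentose phosphate genes in each library, 3 refed libraries left of 3 fasted ones, with 1 colour per gene. The refed sums are 364 to 543 RPKM and the fasted sums 158 to 172 RPKM, and Pgd is the segment that differs most.

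The refed libraries differed among themselves, most in G6pdx and Pgd among the 9 genes. Refed 7 had the highest refed value for 6 of the 9 genes, and for 33.7% of all genes tested and 50% of the 412 genes called higher with a log2 fold change of at least 1. On the log2(RPKM + 1) scale, refed 7 lay 1.37 above the refed mean for G6pdx, 0.62 for Pgd and 0.23 for Tkt, and refed 8 was the lowest of the refed libraries for each. Rpia, which also changed strongly between the groups, lay 0.09 and 0.12 above the refed mean in refed 5 and 7. In refed 8 its deviation was -0.21. For Idh1, Taldo1, Rpe, Pgls and H6pd no refed library was more than 0.20 from the refed mean. Of 5 genes of lipid synthesis and its control set beside them, chosen with their values known, Me1, Fasn, Acly and Srebf1 were highest in refed 7 and lowest in refed 8. Me1 was at 462, 634 and 298 RPKM, Acly, ATP citrate lyase, at 1260, 1602 and 843 RPKM, and Srebf1, the gene of a lipogenic factor, at 104, 150 and 87.7 RPKM in refed 5, 7 and 8. Mlxipl, the gene of a carbohydrate-response factor, was also highest in refed 7 but lowest in refed 5, at 258, 327 and 286 RPKM in refed 5, 7 and 8. These values describe 3 libraries.

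**Figure D4:**
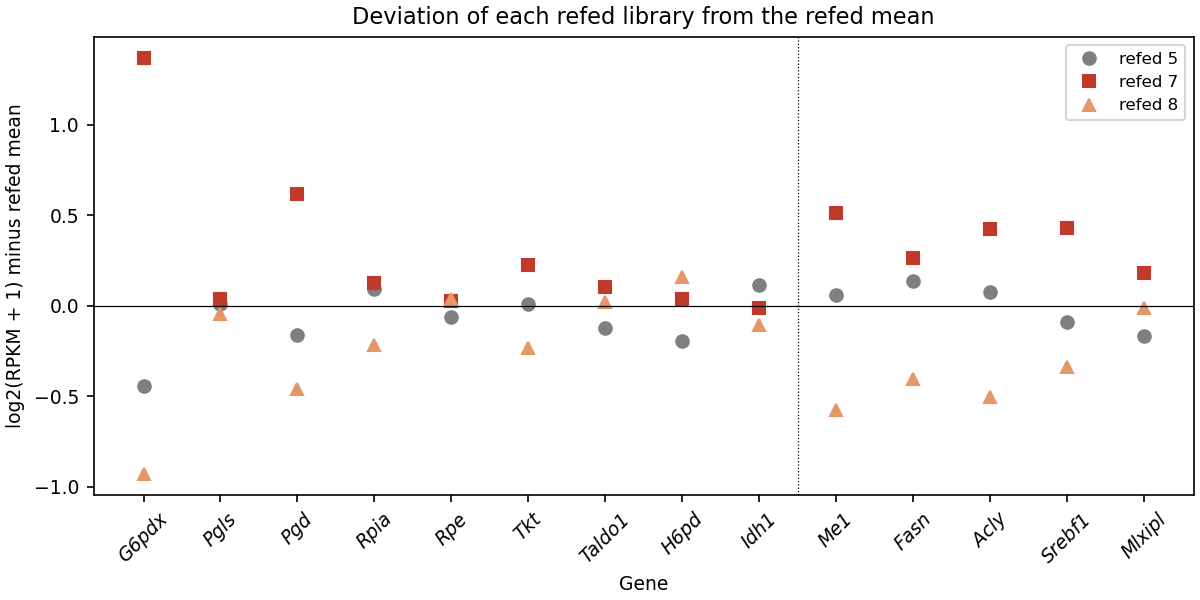
Deviation of each refed library from the mean of the refed libraries, in log2(RPKM + 1), for the 9 genes (left of the dotted line) and 5 genes of lipid synthesis and its regulation. Refed 7 is uppermost for G6pdx and Pgd, at 1.37 and 0.62, as it is for Me1, Fasn, Acly, Srebf1 and Mlxipl.

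The genes with the profiles most like that of Pgd over the 6 libraries, by Euclidean distance between log2(RPKM + 1) values centred on each gene's mean, were Acaca, Acss2, Acss2os, Me1 and Fdps, at distances of 0.524 to 0.813. Acaca encodes an acetyl-CoA carboxylase of fatty acid synthesis, Acss2 an acetyl-CoA synthetase, Me1 the cytosolic malic enzyme and Fdps an enzyme of isoprenoid and sterol synthesis. Acaca was at 43.2, 60.5 and 28.5 RPKM in refed 5, 7 and 8, against 1.95, 2.25 and 2.28 RPKM in fasted 1, 3 and 4. Acss2os is named as an antisense RNA of Acss2, so their reads may not be separable. Nearest to Tkt were Enpep, Dhx33, Gm2061, Gm15408 and Septin5 (0.216 to 0.292), and nearest to Idh1 were Cyp20a1, Dnpep, Lman1, Fam98b and Pip4p1 (0.073 to 0.130). Nearest to G6pdx, at 0.674 to 0.846, were Lmntd2, Rgs16, Morc4, Gm12070 and Acot11, each of them with its highest value in refed 7, such as Rgs16, a regulator of G-protein signalling, at 90.9 RPKM there and 42.7 and 26.6 RPKM in refed 5 and 8. Gm12070, which did not pass the test, was at 5.95 RPKM in refed 7 and at most 0.033 RPKM in every other library. The distances are descriptions over 6 libraries, and all points share the contrast of feeding.

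Genes next to the pathway changed in both directions. Of 17 genes listed as feeding, draining or sharing its intermediates, 14 were tested, 7 were higher, 3 were lower and 4 did not pass. Their median log2 fold change was 0.31. Over all genes tested, 26.4% were called higher and 15.8% lower, and the median was 0.10. Gpi1, glucose-6-phosphate isomerase, which draws glucose 6-phosphate into glycolysis, was at 384, 492 and 336 RPKM in refed 5, 7 and 8, against 62.0, 58.1 and 63.3 RPKM in fasted 1, 3 and 4 (log2 fold change 2.69 ± 0.14 SE, limma adjusted p = 1.3e-05). Tigar, a fructose bisphosphatase that favours the pathway over glycolysis, was low in both groups and rose by 0.44 on the log2 scale (limma adjusted p = 0.0098). Shpk, which makes sedoheptulose 7-phosphate and is named here after its value was seen, rose 1.51-fold (limma adjusted p = 0.0038).

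The lower ones, also named after their values were seen, were Dcxr, a reductase of xylulose, at -0.61 ± 0.10, Prpsap1, a protein associated with the enzyme that makes phosphoribosyl pyrophosphate from ribose 5-phosphate, at -0.66 ± 0.08, and Pgm1, a phosphoglucomutase that the deposited tables list under its older symbol Pgm2, at -0.50 ± 0.09 (log2 fold change ± SE; limma adjusted p = 0.0026, 0.00063 and 0.003). Pgm2 (by its current symbol) and Prpsap2, on the same list and also named after their values were seen, went the other way. They were called higher, at 0.71 ± 0.14 and 0.53 ± 0.10 (log2 fold change ± SE, limma adjusted p = 0.0058 and 0.005). Pgm2 was at 3.06 RPKM and Prpsap2 at 5.33 RPKM on average in refed liver. In fasted liver they were at 1.51 and 3.38 RPKM. Tktl1, Tktl2 and G6pd2, the close copies of Tkt and G6pdx, were not analysed here.

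**Figure D5:**
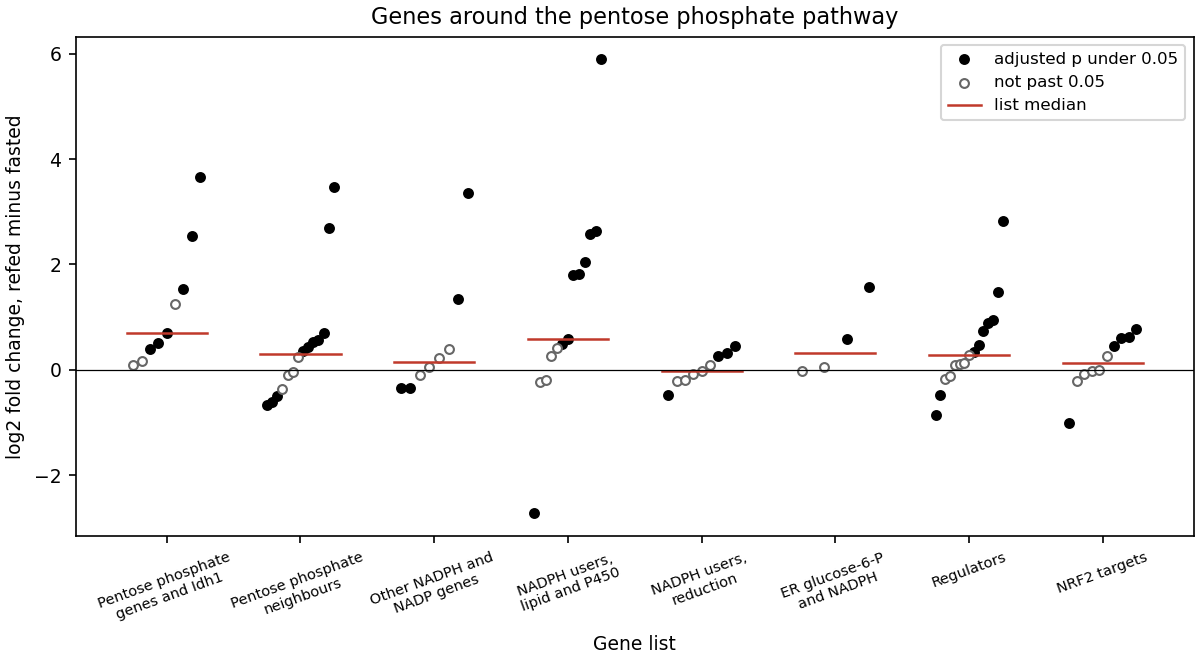
Log2 fold change of refed minus fasted for the tested genes of 8 lists, with filled points where the limma adjusted p was under 0.05, open points elsewhere and a red bar at each list's median. The median of the 9 members is 0.70, and Fasn at 5.89 and Por at -2.71 are the extremes of the lipid and P450 list.

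Other sources of NADPH, and the kinases that make NADP+, were mixed. Of 11 genes listed, 8 were tested, with 2 higher, 2 lower and 4 that did not pass, and a median log2 fold change of 0.14. Among all genes tested the shares were 26.4% higher and 15.8% lower. Me1, the cytosolic malic enzyme, was at 462, 634 and 298 RPKM in refed 5, 7 and 8, against 34.8, 49.5 and 44.6 RPKM in fasted 1, 3 and 4 (log2 fold change 3.35 ± 0.26 SE, limma adjusted p = 7e-05). Its level relative to Idh1 was 1.49 to 2.97 in refed and 0.263 to 0.356 in fasted libraries. Mthfd2, a mitochondrial enzyme of folate metabolism, was very low and rose, at 2.57, 1.94 and 2.54 RPKM in refed 5, 7 and 8, against 0.359, 0.394 and 0.192 RPKM in fasted 1, 3 and 4 (1.35 ± 0.12, limma adjusted p = 0.00016).

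Idh2, the mitochondrial counterpart of Idh1, was at 62.0, 50.7 and 57.0 RPKM in refed 5, 7 and 8, against 50.6, 52.8 and 59.0 RPKM in fasted 1, 3 and 4, and the groups overlapped (log2 fold change 0.06 ± 0.10 SE, limma adjusted p = 0.67). The ratio of Idh1 to Idh2 was 3.50 to 4.21 in refed and 2.12 to 2.65 in fasted libraries. The lower genes, named after their values were seen, were Nnt, the mitochondrial transhydrogenase, at -0.35 ± 0.11 and Nadk2, the mitochondrial NAD kinase, at -0.35 ± 0.12 (log2 fold change ± SE; limma adjusted p = 0.035 and 0.043). C57BL/6J mice are known to carry a deletion in Nnt. Nnt lost its call without refed 5, refed 7, refed 8, fasted 3 or fasted 4 (limma adjusted p of 0.058 to 0.109), and Nadk2 without refed 7, refed 8, fasted 3 or fasted 4 (0.085 to 0.134).

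Users of NADPH were counted on separate lists, and the lists were not tested against each other. Of 13 genes whose products spend it on lipids or on cytochrome P450, all were tested, with 8 higher, 1 lower and 4 that did not pass. Their median log2 fold change was 0.58. Among all genes tested the shares were 26.4% higher and 15.8% lower. Among the 6 with the largest changes were Fasn, fatty acid synthase (log2 fold change 5.89 ± 0.18 SE, limma adjusted p = 2e-06), and Sqle, Dhcr7 and Cyp51 of sterol synthesis (2.63, 2.57 and 2.05). Por, the reductase that passes electrons from NADPH to cytochrome P450 enzymes, fell, at 66.7, 35.2 and 57.8 RPKM in refed 5, 7 and 8, against 353, 377 and 303 RPKM in fasted 1, 3 and 4 (-2.71 ± 0.22, limma adjusted p = 8.3e-05). Refed 7, the highest refed library for Pgd and Me1, was the lowest for Por.

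Of 10 genes of reductases in redox defence and related reductions, 9 were tested, with 3 higher, 1 lower and 5 that did not pass. Their median was -0.01. Among all genes tested the shares were 26.4% higher and 15.8% lower. The higher genes, named after their values were seen, were Gsr, glutathione reductase, at 0.31 ± 0.09, and the thioredoxin reductase genes Txnrd1 at 0.46 ± 0.11 and Txnrd2 at 0.26 ± 0.09 (log2 fold change ± SE; limma adjusted p = 0.021, 0.012 and 0.049). Gsr lost its call without refed 5, refed 8, fasted 1 or fasted 3 (limma adjusted p of 0.053 to 0.082), and Txnrd2 lost it under 10 of 14 alternatives, among them centring (limma adjusted p = 0.107), quantile normalization (0.111) and leaving out any single library but fasted 4 (0.074 to 0.152).

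In the endoplasmic reticulum, where H6pd was level, 2 of 4 listed genes were higher and none lower, with a median log2 fold change of 0.32. Among all genes tested the shares were 26.4% higher and 15.8% lower. Slc37a4, the transporter that brings glucose 6-phosphate to H6pd and to glucose-6-phosphatase, was at 126, 128 and 120 RPKM in refed 5, 7 and 8, against 87.6, 80.7 and 78.3 RPKM in fasted 1, 3 and 4 (log2 fold change 0.60 ± 0.08 SE, limma adjusted p = 0.001). G6pc, the glucose-6-phosphatase catalytic subunit, was 3.01-fold higher in refed liver (1.58 ± 0.21, limma adjusted p = 0.0009). Hsd11b1 was at 288, 295 and 284 RPKM in refed 5, 7 and 8, against 251, 285 and 302 RPKM in fasted 1, 3 and 4 (0.05 ± 0.09, limma adjusted p = 0.69). G6pc3, another catalytic subunit gene, named after its value was seen, was at 4.09 RPKM on average in refed and 4.19 in fasted liver (limma adjusted p = 0.87).

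Among 15 genes of factors that act on these promoters or enzymes in other settings, 7 were higher, 2 lower and 6 did not pass. Their median log2 fold change was 0.28. Over all genes tested, 26.4% were called higher and 15.8% lower. Srebf1, whose product drives lipogenic genes, was at 104, 150 and 87.7 RPKM in refed 5, 7 and 8, against 14.1, 14.6 and 15.8 RPKM in fasted 1, 3 and 4 (2.83 ± 0.18 SE, limma adjusted p = 3.1e-05). Mlxipl, which encodes the carbohydrate-response factor ChREBP, rose by 1.48 ± 0.17 (limma adjusted p = 0.00041). Nfe2l2, which encodes NRF2, was at 35.4, 35.4 and 41.4 RPKM in refed 5, 7 and 8, against 19.0, 19.7 and 20.5 RPKM in fasted 1, 3 and 4 (0.88 ± 0.09, limma adjusted p = 0.00024). Keap1, whose product leads NRF2 to degradation, was at 20.6 RPKM on average in refed and 18.7 in fasted liver (0.13 ± 0.09, limma adjusted p = 0.25).

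The lower genes, named after their values were seen, were Txnip, an inhibitor of thioredoxin (-0.85 ± 0.27, limma adjusted p = 0.036), and Mafg, a dimer partner of NRF2 (-0.47 ± 0.12, limma adjusted p = 0.013). The groups overlapped for Txnip, at 40.7, 27.1 and 32.3 RPKM in refed 5, 7 and 8. In fasted 1, 3 and 4 Txnip was at 38.1, 81.0 and 70.7 RPKM. Txnip lost its call without refed 7, refed 8, fasted 3 or fasted 4 (limma adjusted p of 0.083 to 0.112). Of 11 listed targets of NRF2, 10 were tested, with 4 higher, 1 lower and 5 that did not pass, and a median of 0.13. Over all genes tested, 26.4% were called higher and 15.8% lower. Higher were Txnrd1 and, named after their values were seen, Srxn1, sulfiredoxin, at 0.62, Gstm1, a glutathione transferase that can share reads with close copies, at 0.60, and Ugdh, UDP-glucose dehydrogenase, at 0.77. Abcc3, an export pump, fell by 1.02 (limma adjusted p = 0.00034). Those that did not pass, also named after their values were seen, were Nqo1, Gclc, Gclm, Hmox1 and Ephx1. Their log2 fold changes were -0.08, -0.01, -0.22, 0.26 and -0.03 in that order. Txnrd1 and Nqo1 are on the reductase list too.

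Marker genes of liver cell types were set beside these results. Over all genes tested, 26.4% were called higher and 15.8% lower. In bulk tissue fewer cells of a type and less RNA per cell cannot be told apart. All 8 hepatocyte markers were detected in every library. Of these, Cps1, Tat, Cyp2e1 and Hnf4a were lower and none was higher in refed liver, and the list summed to 45760 to 48680 RPKM in refed and 48789 to 56806 RPKM in fasted libraries. None of 8 Kupffer cell markers was called (50.1 to 53.6 RPKM summed in refed, 31.6 to 92.0 RPKM in fasted libraries). For endothelium 1 of 8 was higher (43.6 to 48.7 RPKM in refed, 38.0 to 44.0 RPKM in fasted libraries), and for stellate cells 1 of 8 (62.7 to 78.7 RPKM in refed, 48.1 to 87.4 RPKM in fasted libraries). Of 5 cholangiocyte markers tested, Krt19, Krt7 and Sox9 were higher, with sums of 21.3 to 29.6 RPKM in refed and 17.9 to 27.0 RPKM in fasted libraries. All of these called markers were low, at means of 2.35, 0.895 and 2.90 RPKM in refed and 0.775, 0.366 and 1.74 RPKM in fasted liver. Krt7 reached 1 RPKM, the level needed to be covered, in refed 7 alone. Most of each sum was Spp1, named after its value was seen, which was not called (means of 18.7 RPKM in refed and 20.1 RPKM in fasted liver). None of 4 erythroid markers, 3 neutrophil markers and 1 adipocyte marker was called. The neutrophil sum reached 812 RPKM in fasted 1, of which Lcn2, named after its value was seen, was 808. It was 9.13 to 18.1 RPKM in refed libraries and 6.38 and 6.50 RPKM in fasted 4 and fasted 3. The other neutrophil markers tested, S100a8 and S100a9, also named after their values were seen, were at 2.63 and 1.19 RPKM in fasted 1. In refed libraries S100a8 was at 0.476 to 2.04 RPKM and S100a9 at 0.478 to 1.89 RPKM. Lymphocyte markers were not analysed here. G6pdx, Pgd and Tkt in fasted 1 were at 1.55, 13.4 and 33.7 RPKM, each near the other fasted libraries. Without fasted 1, the log2 fold changes were 1.29 for G6pdx, 3.78 for Pgd and 1.49 for Tkt. The part of cell composition in the 9 genes was not tested.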

How the data were processed

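Messenger RNA of 6 liver samples was profiled, and samples were grouped by their titles. The submitters' processing notes name STAR 2.6.0c, FastQC, DESeq2 and mm9, with no role for each. The main table holds RPKM computed by the authors for 14659 RefSeq transcripts, each reaching 1 RPKM in some library, so transcripts below that level are not covered. No source used here gives the read total behind the scaling. A further deposited table lists raw read counts, log2 fold changes and false discovery rates (adjusted p-values), per the file headers from DESeq, for the authors' 5434 called rows. Those counts, 26237934 to 33219013 per library, cover the called genes alone, so the depth of a library is unknown and no intervals or floors from counting are printed. As these counts were chosen on the outcome, they were not tested.

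Transcripts were named by RefSeq accession (14387), symbol (198), synonym (13) or the deposited symbol alone (7), and 54 without a name were left out. Values were taken as log2(RPKM + 1) for the 10898 of 10955 genes whose mean reached 0.5 RPKM, the 9 members among them. The groups were compared two-sided with limma 3.58.1 (R 4.3.3, trended variance), adjusting over all tested genes by Benjamini-Hochberg, at a threshold of 0.05. Errors of means are SD and errors of log2 fold changes are SE. The script was tested on simulated data. Genes are named if they are members, if they are among the 6 largest calls of a list with an absolute log2 fold change of at least 1, if their role pairs them with a member, or if their profile is among the 5 nearest to that of G6pdx, Pgd, Tkt or Idh1; exceptions are marked. Members and lists were chosen with earlier results of these data known. Alternatives were other pseudocounts, filters and scalings, summed transcripts, untrended variance and each library left out. A few genes that enter the counts of lists are not reported here by name.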

Additional observations from a re-analysis of the deposited data

How the results depend on the processing

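The 9 members were refitted under 14 alternatives, 126 values in all. In 125 of them a member kept its direction and its side of the threshold, and the exception was G6pdx without refed 8 (log2 fold change 1.71, limma adjusted p = 0.028). Some of these directions could not differ. Changing the filter or the variance trend leaves each member's log2 fold change as it was. Summing transcripts can alter it for Idh1 alone. With a library left out in turn, log2 fold changes ranged from 0.56 to 1.71 for G6pdx, 0.02 to 0.20 for H6pd, 0.64 to 0.75 for Idh1, 3.34 to 3.88 for Pgd, 0.13 to 0.21 for Pgls, 0.33 to 0.43 for Rpe, 2.47 to 2.65 for Rpia, 0.47 to 0.58 for Taldo1 and 1.42 to 1.65 for Tkt. The number of members called was 6 to 7 and the number of genes called 3448 to 4209, against 4598 with all libraries. With median centring and quantile normalization the median over all tested genes was 0.01, against 0.10 as deposited, and 4451 and 4460 genes were called.

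For 57 other genes, 35 values lost a call and 7 changed sign, each in a gene that did not pass. Idh2 was at -0.027 with centring and -0.0050 with quantile normalization, and Hsd11b1 at -0.035 with centring. With a library left out, Idh2 ranged from -0.0076 to 0.135, Hsd11b1 from -0.023 to 0.110 and G6pc3 from -0.081 to 0.047. Lmntd2 and Rgs16, near G6pdx in profile, lost their calls without fasted 1 or fasted 3, and Lmntd2 also with centring, with quantile normalization and without refed 5 or fasted 4. Ikbkg, which overlaps G6pdx, was called without refed 7 (0.36, limma adjusted p = 0.032). The cause was not tested. No paired analysis was possible because the groups share no replicate number. With unknown depth, differences of low genes such as G6pdx in fasted liver carry an unknown counting error.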
